A study of Macaca fascicularis with 16 samples.

Results

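The 10 genes described here are genes of the white fat cell, measured in RNA from the aorta of the cynomolgus monkey (Macaca fascicularis). They are PPARG, LPL, FABP4, GPD1, PLIN1, PLIN4, CIDEC, LIPE, ADIPOQ and LEP. They were chosen by symbol as white adipocyte genes, by looking up the NCBI GeneID that carries each symbol in the deposited count table. All 10 were found among the 32846 rows of the table. All 10 also passed the filter on low counts, which kept 15926 genes for testing.

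White fat surrounds much of the aorta as perivascular fat, and a white fat cell stores triglyceride in a single large lipid droplet. Fatty acids are released from circulating lipoproteins by lipoprotein lipase, carried through the cell by fatty acid binding proteins, and joined to a glycerol backbone. The droplet is coated by perilipins, is broken down again by lipases when fuel is needed, and the cell secretes hormones such as adiponectin and leptin. The receptor PPAR gamma switches on most of these genes in fat cells.

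RNA was sequenced in 16 libraries, 4 each of the infrarenal, suprarenal, descending and ascending aorta. The infrarenal and suprarenal regions are the abdominal aorta below and above the renal arteries, the descending region is the thoracic aorta behind the heart, and the ascending region is the first stretch after the aortic valve. All animals were labelled as normal, young and at baseline, with no treated group. Sex, age in years and the amount of fat left around the vessel are not stated in the labels. Nor do they state that each library is a different animal, and the p-values therefore reflect only how far these libraries spread. In bulk tissue, fewer cells of a type and less RNA per cell cannot be told apart.

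Library totals lay between 14402824 and 21407514 counts, and together the 10 genes took 0.0126% to 0.480% of the counts of a library. Smooth muscle markers, which define the arterial wall, were abundant in every library, with a summed level of 13499 to 58092 CPM (the count scaled to a common library size) over 8 genes. Infrarenal replicate 1 stood apart, with a TMM factor of 0.736 against 0.977 to 1.08 in the other libraries and a ribosomal protein score of 1.38 against values of -0.37 to 0.29 (mean centred log2 CPM of 74 genes). Ascending replicate 4 stood apart in mesothelial markers and suprarenal replicate 3 in endothelial and fibroblast markers, and the results are also given without these 3 libraries. Infrarenal replicate 3 was also high in endothelial markers, at 2896 CPM against 1102 to 1485 CPM in the others of its region, and was kept in that fit. CPM values were computed on TMM-scaled library sizes and are not divided by gene length, so levels of different genes are not compared.

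Across regions, the 10 genes shared their lowest region and mostly their highest. The ascending aorta had the lowest mean CPM for 10 of 10 genes, and the descending aorta the highest for 9 of 10. The exception was FABP4, whose mean CPM was highest in the infrarenal aorta. On mean log2 CPM the descending aorta was highest for 10 of 10 genes, with FABP4 at 8.81 there and 8.42 in the infrarenal aorta. The infrarenal and suprarenal means changed places from gene to gene. Within each region, however, libraries differed widely, and the highest library of a region was mostly the same for every gene. That library was replicate 3 in the infrarenal region for 10 of 10 genes, replicate 3 in the suprarenal region for 10 of 10, replicate 1 in the descending region for 10 of 10 and replicate 4 in the ascending region for 8 of 10. None of the 10 genes passed the test in any comparison of regions.

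**Figure D1:**
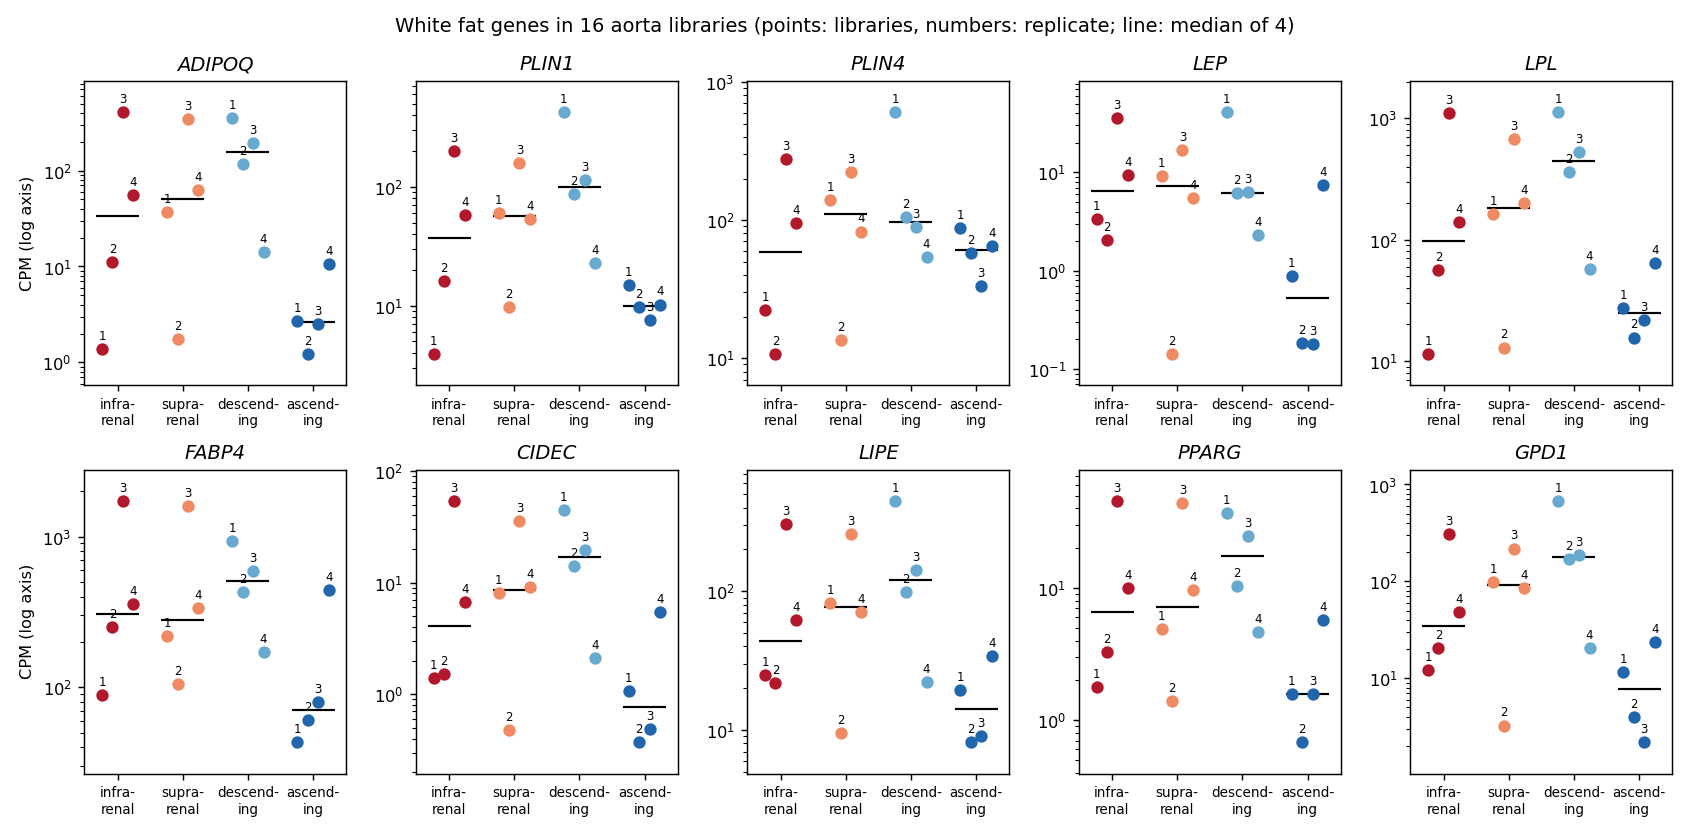
CPM (log axis) of each of the 10 white fat genes in the 16 libraries, with regions in the order infrarenal, suprarenal, descending and ascending, the replicate number at each point and a line at the median of the 4 libraries. The points of a region spread widely, and the ascending libraries lie low in most panels, as for ADIPOQ, with 1.23 to 10.6 CPM there.

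PPARG (GeneID 102120453) encodes PPAR gamma, the nuclear receptor that drives fat cell formation. It had 1.77, 3.25, 45.4 and 9.96 CPM in infrarenal replicates 1 to 4 and 4.89, 1.39, 43.7 and 9.57 CPM in the suprarenal replicates. The descending replicates had 36.8, 10.4, 24.7 and 4.66 CPM, against 1.57, 0.679, 1.57 and 5.67 CPM in the ascending replicates. The infrarenal and suprarenal values were high in replicate 3 alone, and 7 of the 12 libraries outside the ascending region lay above its highest library. The descending and ascending values overlapped in 1 of 16 pairs of libraries, in which descending replicate 4 lay below ascending replicate 4.

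LPL (GeneID 102129758), the lipase that frees fatty acids from lipoproteins at the vessel wall, had 11.5, 55.9, 1096 and 141 CPM in infrarenal replicates 1 to 4 and 164, 12.9, 678 and 199 CPM in the suprarenal replicates. It had 1119, 364, 532 and 57.5 CPM in the descending replicates, against 27.6, 15.6, 21.8 and 63.9 CPM in the ascending ones. Infrarenal replicate 1 and suprarenal replicate 2 lay below all 4 ascending libraries, so the 4 infrarenal and 4 suprarenal libraries spanned the whole range of the ascending region.

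FABP4 (GeneID 102116073), the fatty acid binding protein of fat cells, is also made by macrophages and by the endothelium of small vessels. Its infrarenal replicates had 89.2, 249.7, 1719 and 359 CPM and its suprarenal replicates 221, 106, 1600.1 and 336 CPM. The descending replicates had 931, 427, 594 and 171 CPM, against 43.2, 61.1, 80.1 and 443 CPM in the ascending replicates. Only 4 of the 12 other libraries lay above ascending replicate 4, but all 12 lay above the other 3 ascending libraries. Endothelial markers were high in 3 of the 4 libraries where FABP4 was highest in its region. Their summed level over 10 genes, of which 0 were at 0 counts in every library, was 2896 CPM in infrarenal replicate 3 (1102 to 1485 in the others), 3412 CPM in suprarenal replicate 3 (589 to 1006 in the others) and 1992 CPM in ascending replicate 4 (500 to 732 in the others). In descending replicate 1 it was 762 CPM, against 779 to 1061 in the others of that region. Macrophage markers summed to 180 to 439 CPM over all 16 libraries. The part of these cells in the FABP4 values was not tested.

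GPD1 (GeneID 101865501), the glycerol-3-phosphate dehydrogenase that makes the glycerol backbone of triglyceride, had 12.03, 20.7, 306 and 48.8 CPM in infrarenal replicates 1 to 4 and 97.7, 3.25, 218 and 85.7 CPM in the suprarenal replicates. In the descending replicates it had 674, 169.6, 186 and 20.6 CPM, against 11.5, 4.01, 2.18 and 23.7 CPM in the ascending replicates. Descending replicates 1 to 3 lay above every ascending library, while descending replicate 4 lay just below ascending replicate 4.

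PLIN1 (GeneID 102145955), the perilipin that coats the droplet of fat cells and guards it from lipases, had 3.93, 16.1, 198 and 58.1 CPM in the infrarenal replicates and 59.6, 9.66, 159.9 and 54.0 CPM in the suprarenal replicates. It had 423, 86.4, 115 and 22.9 CPM in the descending replicates, against 14.97, 9.75, 7.51 and 10.2 CPM in the ascending ones. The descending libraries all lay above the ascending libraries, which were the tightest set of any gene, with a highest value 1.99 times the lowest.

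PLIN4 (GeneID 102116099), a perilipin of fat and muscle cells, gave a different picture. It had 22.4, 10.8, 279 and 94.9 CPM in the infrarenal replicates and 140.3, 13.4, 221 and 82.6 CPM in the suprarenal replicates. The descending replicates had 602, 106, 88.9 and 53.9 CPM, against 86.9, 57.5, 33.4 and 64.5 CPM in the ascending replicates. The 2 lowest of all 16 libraries were infrarenal replicate 2 and suprarenal replicate 2, and the ascending libraries lay in the middle of the range. On the scale of mean log2 CPM the infrarenal aorta, at 5.66, was the lowest region for PLIN4 and the ascending aorta stood at 5.84, whereas the ascending aorta was lowest for the other 9 genes.

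CIDEC (GeneID 102124278), a protein of droplet contact sites through which droplets fuse and grow, had 1.39, 1.505, 53.7 and 6.73 CPM in infrarenal replicates 1 to 4 and 8.10, 0.478, 35.98 and 9.09 CPM in the suprarenal replicates. Its descending replicates had 45.1, 14.03, 19.8 and 2.11 CPM, against 1.07, 0.370, 0.484 and 5.43 CPM in the ascending replicates. Infrarenal replicate 3 lay far above the other 3 of its region, and 8 of the 12 libraries outside the ascending region lay above its highest.

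LIPE (GeneID 102143368), the hormone-sensitive lipase that breaks down stored fat, had 24.8, 21.97, 303 and 62.5 CPM in the infrarenal replicates and 82.5, 9.57, 257 and 70.7 CPM in the suprarenal replicates. The descending replicates had 446, 98.8, 141 and 22.2 CPM, against 19.4, 8.15, 9.02 and 34.4 CPM in the ascending replicates. As with CIDEC, 8 of 12 libraries lay above the highest ascending library, and descending replicate 4 did not.

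ADIPOQ (GeneID 102123471), which encodes the fat cell hormone adiponectin, had the widest ratio between libraries. It had 1.39, 11.2, 404 and 55.8 CPM in infrarenal replicates 1 to 4 and 37.1, 1.77, 345 and 63.3 CPM in the suprarenal replicates. In the descending replicates it had 356, 117, 194 and 14.1 CPM, against 2.69, 1.23, 2.54 and 10.6 CPM in the ascending replicates. The highest library held 327 times the CPM of the lowest, all 4 descending libraries lay above all 4 ascending ones, and 10 of 12 libraries outside the ascending region did. Infrarenal replicate 1 and suprarenal replicate 2 were the exceptions. The regional means were 118 ± 192, 112 ± 158 and 170.1 ± 144 CPM in the infrarenal, suprarenal and descending aorta, against 4.26 ± 4.25 CPM in the ascending aorta (SD, n = 4 each), so the SD was above the mean in the infrarenal and suprarenal regions.

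LEP (GeneID 102136844), which encodes leptin, the hormone that signals fat stores to the brain, had 3.39, 2.05, 36.04 and 9.45 CPM in the infrarenal replicates and 9.15, 0.143, 16.8 and 5.49 CPM in the suprarenal replicates. It had 40.8, 6.20, 6.25 and 2.33 CPM in the descending replicates, against 0.877, 0.185, 0.182 and 7.36 CPM in the ascending replicates. The ascending values stood on 14, 3, 3 and 122 counts, and suprarenal replicate 2 on 3 counts. The ratio of the highest to the lowest library was 284, with an exact 95% counting interval of 96.8 to 1381 that covers counting error only. Only 5 of the 12 other libraries lay above ascending replicate 4, in which LEP was higher than in 3 of the 4 descending libraries.

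**Figure D2:**
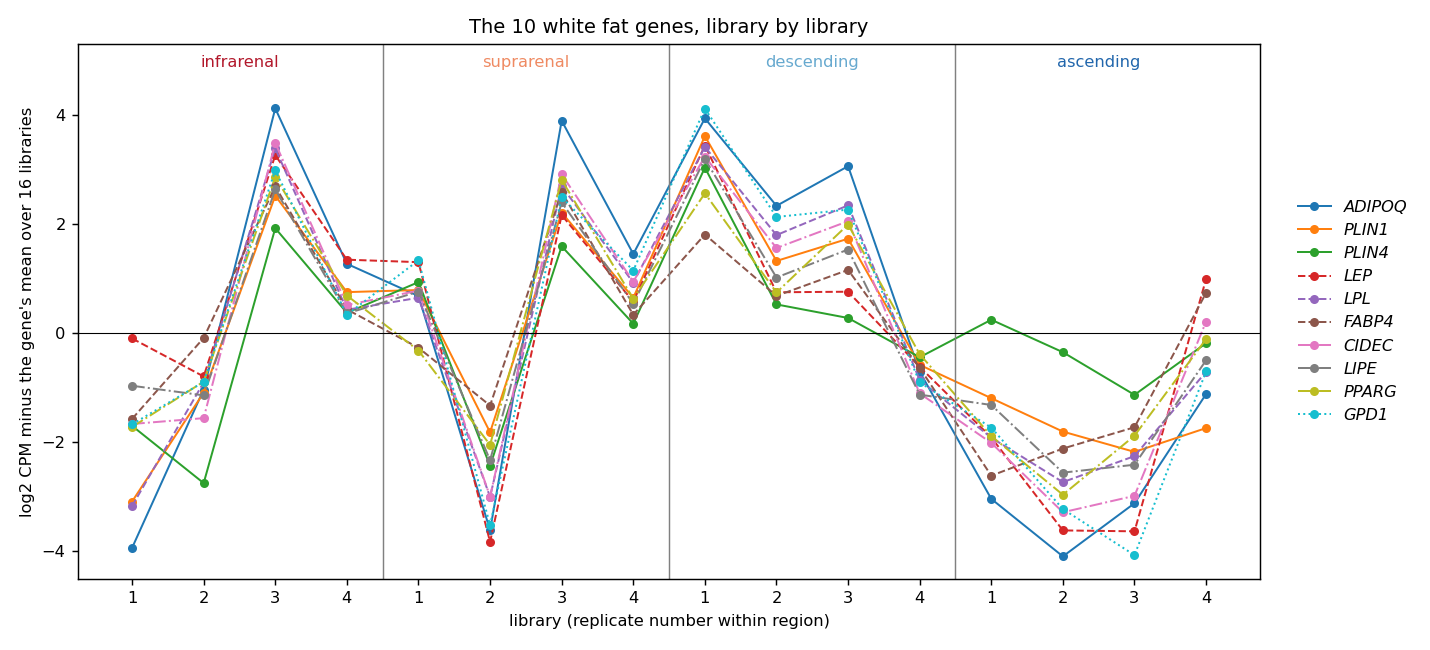
Log2 CPM of the 10 genes in each library, each gene centred on its mean over the 16 libraries, with libraries grouped as infrarenal, suprarenal, descending and ascending. The lines link the values of a gene for the eye, and all genes peak in infrarenal replicate 3, suprarenal replicate 3 and descending replicate 1 within those regions.

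The genes moved together from library to library. The Pearson correlation of a gene's log2 CPM with the mean of the other 9 was 0.971 to 0.991 over the 16 libraries for ADIPOQ, LPL, CIDEC, LIPE, PPARG and GPD1, and was highest for CIDEC. It was 0.941 for PLIN1, 0.914 for FABP4, 0.909 for LEP and 0.805 for PLIN4. These are descriptions over libraries that share regions and depth. With the region means removed, the correlations ran from 0.881 for PLIN4 to 0.987 for CIDEC, so PLIN4 lay closer to the rest within regions than across them.

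The size of the movement differed between genes. For each unit of change in the mean of the other 9 on the log2 scale, ADIPOQ changed by 1.52, GPD1 by 1.22, FABP4 by 0.705 and PLIN4 by 0.581. Ratios of CPM to that of ADIPOQ in the same library varied across regions. For PLIN4 the median ratio was 1.33, 2.55 and 1.30 in the infrarenal, suprarenal and descending aorta, against 22.7 in the ascending aorta. For FABP4 it was 14.4, 5.63 and 3.36, against 36.7 in the ascending aorta, and for LPL 3.85, 3.78 and 3.13, against 9.40. PLIN4 and LPL had their lowest ascending ratios at 6.10 and 6.05, while their highest ratios elsewhere were 16.2 and 8.28, so the libraries of the regions overlapped. As the ratios carry no correction for length, only their change between libraries can be read.

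**Figure D3:**
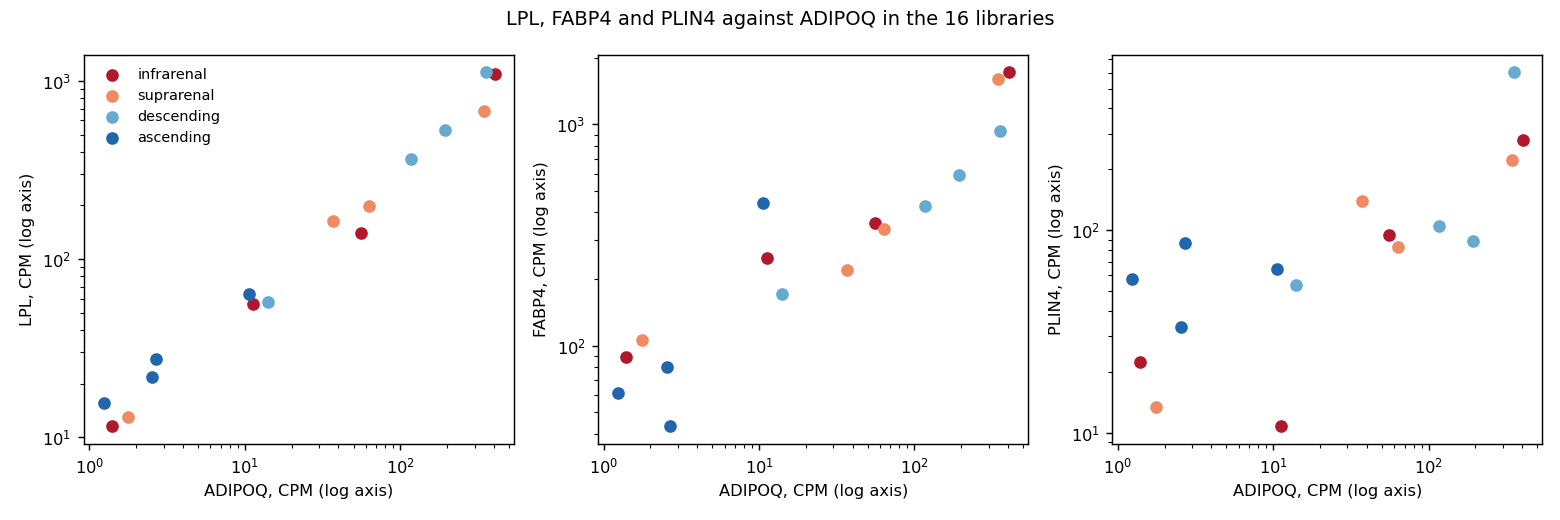
CPM of LPL, FABP4 and PLIN4 plotted against CPM of ADIPOQ in the same library (both axes log scale), 1 point per library, marked by region. LPL follows ADIPOQ closely over the whole range, FABP4 runs over a narrower range and lies high in ascending replicate 4 (443 CPM), and PLIN4 scatters widely among the libraries with little ADIPOQ.

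The spread between libraries of the same region was among the widest of all tested genes. The pooled SD within regions, on the log2 scale, ran from 1.51 for FABP4 to 2.61 for ADIPOQ. The median tested gene had 0.43, and the 10 genes lay between percentiles 98.4 and 99.9. Within the infrarenal region the highest library held 13.8 to 291 times the lowest, depending on the gene, within the suprarenal region 15.1 to 195 times, within the descending region 5.46 to 32.8 times and within the ascending region 1.99 to 40.5 times. Differences between the 4 region means left 57.9% (GPD1) to 86.9% (PLIN4) of a gene's variance within regions, against 82.1% for the median tested gene.

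The first comparison asked whether a gene differed among the 4 regions at all. In edgeR's quasi-likelihood test, 0 of 10 genes passed an adjusted p of 0.05 (Benjamini-Hochberg over all tested genes), where 2.02% of all tested genes did. PLIN1 came nearest (adjusted p = 0.343), followed by GPD1 (adjusted p = 0.365) and ADIPOQ (adjusted p = 0.470). At an unadjusted p under 0.05 these 3 of 10 genes passed, against 9.61% of all tested genes. DESeq2 also called 0 of 10, where it called 5.18% of all genes. With suprarenal replicate 3, infrarenal replicate 1 and ascending replicate 4 left out, FABP4 alone passed (adjusted p = 0.0411), where 7.08% of all genes did.

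The descending aorta was set against the ascending aorta next. For 9 of 10 genes this pair had the largest log2 difference of the 3 comparisons with the ascending aorta. The exception was FABP4, with 1.76 here and 1.95 for infrarenal minus ascending. Its differences of mean log2 CPM had the other order, at 2.18 here and 1.80 for infrarenal minus ascending. Without infrarenal replicate 3 the fitted value of FABP4 for infrarenal minus descending was -1.18. All 10 genes had positive log2 differences, with a median of 3.39 where the median of all tested genes was -0.01, and 0 of 10 passed, where 0.113% of all tested genes did. ADIPOQ had a log2 difference of 5.32 (SE 1.66, adjusted p = 0.389), a 39.8-fold ratio with a 95% interval from 1.79 to 8.84 on the log2 scale. GPD1 had 4.66 (SE 1.35, adjusted p = 0.316), LPL 4.01 (SE 1.31, adjusted p = 0.443) and PLIN1 3.93 (SE 1.11, adjusted p = 0.294). CIDEC, LIPE and PPARG had log2 differences of 3.45, 3.32 and 3.01, and LEP, PLIN4 and FABP4, with intervals that included 0, had 2.68, 1.81 and 1.76. At an unadjusted p under 0.05, 7 of 10 genes passed, against 6.74% of all tested genes. The libraries of the regions did not overlap for 2 of 10 genes, ADIPOQ and PLIN1, whereas 5.42% of all tested genes were higher without overlap. Since the 10 genes moved together, such counts do not stand for 10 independent observations.

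DESeq2, with a different estimate of the spread, called 4 of 10 genes in the descending against the ascending aorta, namely ADIPOQ, PLIN1, LPL and GPD1 (lowest adjusted p = 0.0121), where it called 1.11% of all genes. Leaving out any of the 16 libraries in turn gave 0 calls in edgeR, with a lowest adjusted p of 0.116. Those fits called 0.0432% to 0.21% of all tested genes, so 0 calls among 10 genes lie near that share. The median log2 difference of the 10 genes was 2.59 without descending replicate 1 and 4.24 without ascending replicate 4.

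**Figure D4:**
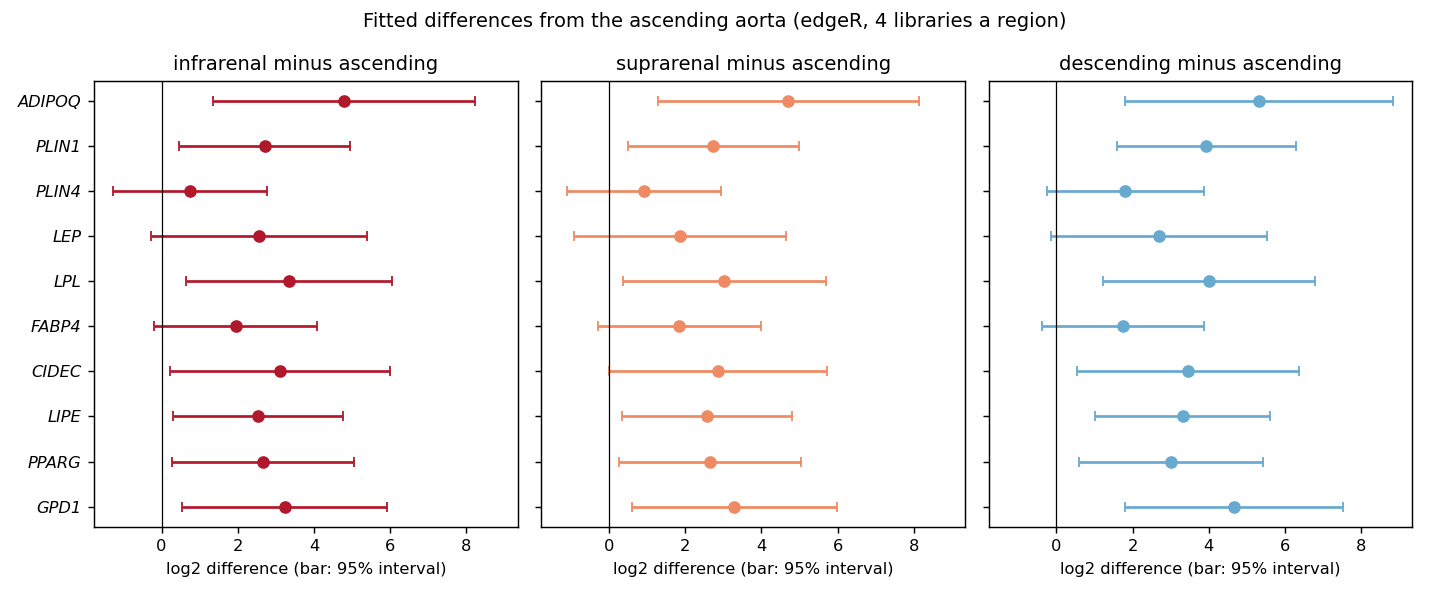
Log2 differences of the 10 genes with 95% intervals from edgeR, in panels for infrarenal minus ascending, suprarenal minus ascending and descending minus ascending. Every point lies above 0 and no gene passed an adjusted p of 0.05, with the largest value for ADIPOQ in each panel (4.79, 4.71 and 5.32).

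Against the ascending aorta, the infrarenal aorta also had positive values for 10 of 10 genes (median 2.68, median of all tested genes 0.05), and 0 of 10 passed, where 3.49% of all tested genes did. ADIPOQ had a log2 difference of 4.79 (SE 1.62, adjusted p = 0.149), LPL 3.34 (SE 1.27, adjusted p = 0.228), GPD1 3.23 (SE 1.26, adjusted p = 0.249) and CIDEC 3.10 (SE 1.36, adjusted p = 0.338). PLIN4 had 0.75 (SE 0.95, adjusted p = 0.856). At an unadjusted p under 0.05, 7 of 10 passed, against 12.7% of all tested genes. These values depended on infrarenal replicate 3. Without that library the median of the 10 genes was 1.09 and PLIN4 had -0.50. Without ascending replicate 4 the median was 3.73. The fit compares mean counts, so its values can differ from the difference of mean log2 CPM. That difference was 2.95 for ADIPOQ and -0.18 for PLIN4, both below the fitted values. Of the 10 genes LEP alone went the other way, with 2.97 against a fitted 2.56.

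DESeq2 called 2 of 10 genes, ADIPOQ and LPL, in the infrarenal against the ascending aorta (lowest adjusted p = 0.0110), where it called 6.3% of all genes. With suprarenal replicate 3, infrarenal replicate 1 and ascending replicate 4 left out, edgeR called 6 of 10 genes, all higher in the infrarenal aorta, namely ADIPOQ, LEP, LPL, FABP4, CIDEC and PPARG (lowest adjusted p = 0.00925). The same fit called 13.2% of all tested genes. The libraries left out there include the lowest infrarenal library for 7 of the 10 genes and the highest ascending library for 8, so leaving them out moves the regions apart. Infrarenal replicate 3, the highest infrarenal library for 10 of 10 genes, was kept.

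The suprarenal aorta against the ascending aorta gave 10 positive values (median 2.69, median of all tested genes 0.01), and 0 of 10 genes passed, where 0.257% of all tested genes did. ADIPOQ had a log2 difference of 4.71 (SE 1.61, adjusted p = 0.522), GPD1 3.29 (SE 1.27, adjusted p = 0.681) and LPL 3.03 (SE 1.25, adjusted p = 0.747), while PLIN4 had 0.92 (SE 0.95). At an unadjusted p under 0.05, 6 of 10 passed, against 5.5% of all tested genes. The median was 1.63 without suprarenal replicate 3 and 3.57 without ascending replicate 4. DESeq2 called ADIPOQ (adjusted p = 0.0489), where it called 1.16% of all genes. The 3 comparisons with the ascending aorta share its 4 libraries.

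Among the other 3 regions no order could be told from the spread. Infrarenal minus descending values had a median of -0.60 and a range of -1.44 (GPD1) to 0.19 (FABP4), with 0 of 10 genes passing, where 1.65% of all tested genes did. Suprarenal minus descending values had a median of -0.79 and a range of -1.38 to 0.09, with 0 of 10 passing, where 0% of all tested genes did. Infrarenal minus suprarenal values had a median of 0.05 and a range of -0.17 to 0.70, with 0 of 10 passing, where 0.201% of all tested genes did. In these 3 comparisons 0 of 10 genes had an unadjusted p under 0.05, against 13.8%, 1.66% and 5.76% of all tested genes, and DESeq2 called 0 of 10 as well, where it called 3.92%, 0% and 1.05% of all genes. Without descending replicate 1, the medians of the infrarenal and suprarenal regions against the descending region were 0.21 and 0.16. Without infrarenal replicate 3 the infrarenal medians were -2.46 against the descending and -1.54 against the suprarenal region, and without suprarenal replicate 3 the median of infrarenal minus suprarenal was 1.37. The intervals were wide. For ADIPOQ, infrarenal minus suprarenal ran from -2.81 to 2.97.

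Markers of other cells differed between the same libraries. Smooth muscle markers were lowest within their regions in infrarenal replicate 3 (21875 CPM), suprarenal replicate 3 (13499 CPM) and ascending replicate 4 (17816 CPM), whereas descending replicate 1, the highest for all 10 fat genes, had 26958 CPM among 26213 to 29501 in that region. Over all libraries they ran from 21875 to 58092 CPM in the infrarenal, 13499 to 34167 CPM in the suprarenal, 26213 to 29501 CPM in the descending and 17816 to 36589 CPM in the ascending region. Mesothelial markers (8 of 9 matched) summed to 1024 CPM in ascending replicate 4 and to 24.8 to 162 CPM in the other 15 libraries. Most of that level was ITLN1, a lectin of mesothelium that omental fat also secretes, with 813 CPM in ascending replicate 4. Preadipocyte and fibroblast markers summed to 1779 to 5716 CPM, highest in suprarenal replicate 3. The rows of mitochondrial RNA names took 0.109%, 0.118%, 0.0856% and 0.0765% of counts in infrarenal replicate 3, suprarenal replicate 3, descending replicate 1 and ascending replicate 4, and 0.0295% to 0.0545% in the other 12 libraries. What part these differences have in the fat gene values was not tested. Lymphocyte markers stayed at 0.814 to 7.30 CPM in sum.

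**Figure D5:**
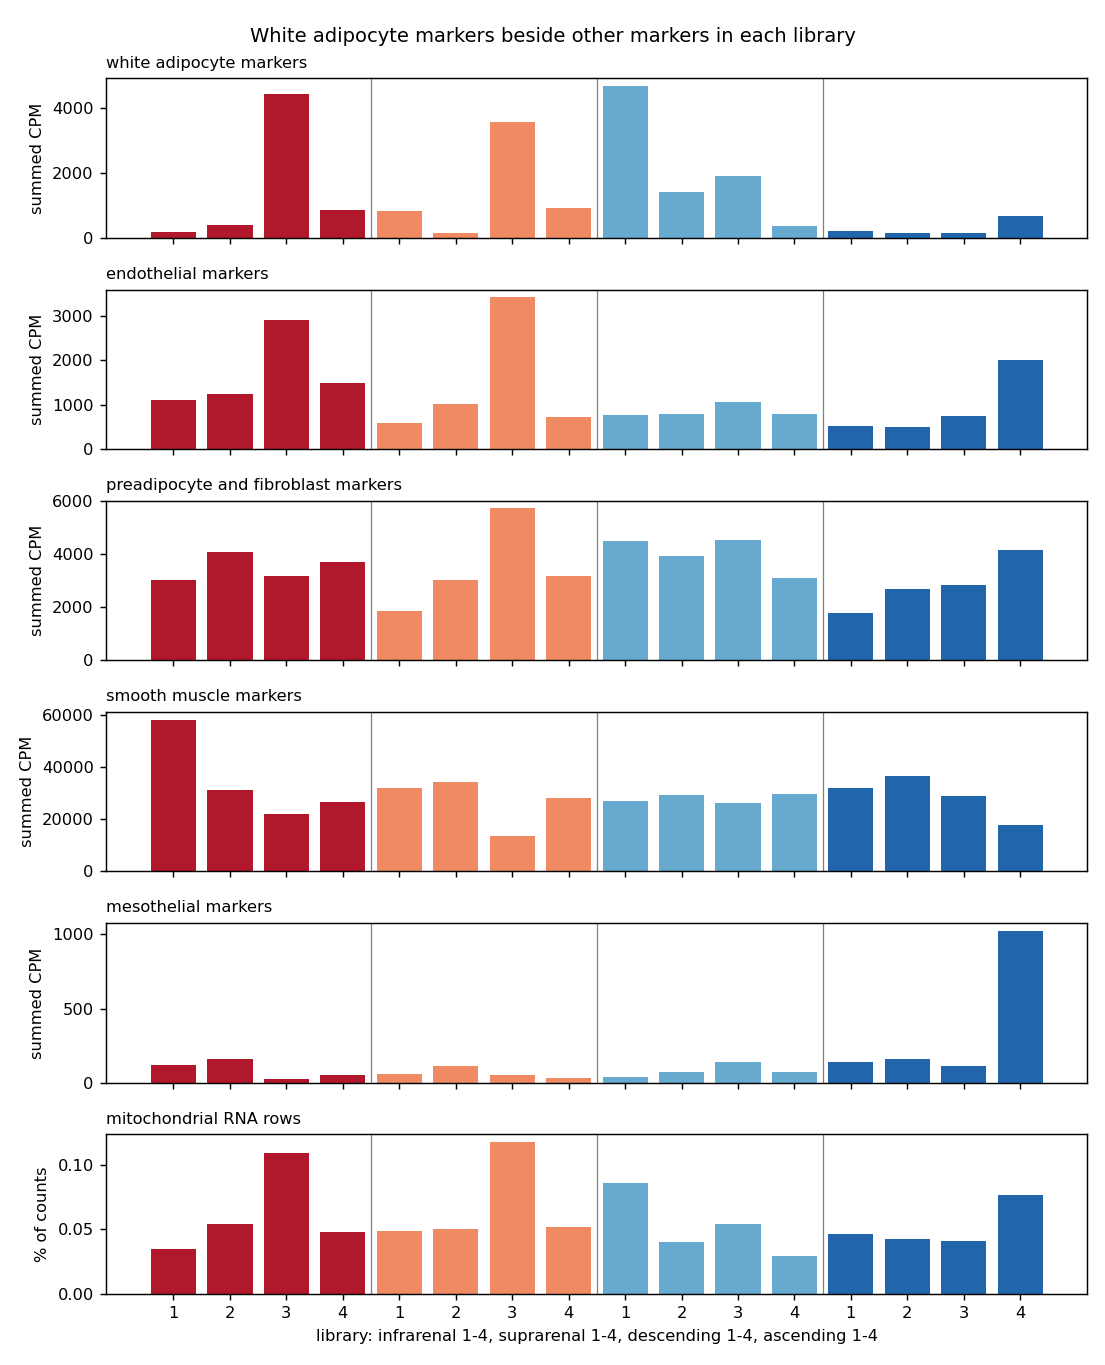
Bars per library of the summed CPM of white adipocyte, endothelial, preadipocyte and fibroblast, smooth muscle and mesothelial markers, and of the percentage of counts in mitochondrial RNA rows, each axis starting at 0. The white adipocyte panel is the sum of the 10 genes, from 158 to 4674 CPM, and its tallest bars are infrarenal replicate 3, suprarenal replicate 3 and descending replicate 1.

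The other 13252 tested genes with a symbol that is not a provisional LOC name were compared with the 10 genes in pattern, by Pearson correlation of log2 CPM with their centred mean over the 16 libraries. A correlation over 0.9 was found for 41 and over 0.8 for 123. The 10 most alike were G0S2 (0.979), KLB (0.977), C7H14orf180 (0.973), TF (0.972), LGALS12 (0.972), LEPR (0.971), ACACB (0.970), CIDEA (0.963), PFKFB1 (0.962) and DGAT2 (0.962). G0S2 is an inhibitor of the lipase that starts triglyceride breakdown, KLB is the co-receptor beta-klotho, LEPR is the leptin receptor, ACACB is an acetyl-CoA carboxylase and DGAT2 makes the last bond of triglyceride. G0S2 averaged 37.4, 38.1 and 68.6 CPM in the infrarenal, suprarenal and descending aorta, against 7.73 CPM in the ascending aorta. DGAT2 averaged 60.6, 75.5 and 236 CPM, against 10.95 CPM in the ascending aorta. ACACB varied less, from 36.3 to 383 CPM over the 16 libraries, while CIDEA ran from 0.363 to 197 CPM. KLB ran from 0 to 18.4 CPM and PFKFB1 from 0 to 7.09 CPM. Their ascending means were 0.215 and 0.167 CPM, so their low values stood on few counts. Of these 10, 5 (G0S2, LEPR, ACACB, CIDEA and DGAT2) are on the lists of fat biology below. Of the same 10, 9 had their highest value in descending replicate 1 and LGALS12 had it in infrarenal replicate 3.

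Lists of other genes of fat biology were counted in the same tests. Of 12 tested transcription factors of fat cells, 0 passed in any comparison. The share of all tested genes that passed was 0% to 3.49%, depending on the comparison. The median log2 difference of these factors was 0.46 for descending minus ascending, where that of all tested genes was -0.01. CEBPA, which acts with PPAR gamma in fat cell formation, had 30.2 ± 19.0, 35.2 ± 16.4 and 77.5 ± 87.4 CPM in the infrarenal, suprarenal and descending aorta, against 23.1 ± 9.53 CPM in the ascending aorta (SD, n = 4). MLXIPL, the carbohydrate response factor, had a log2 difference of 2.31 for descending minus ascending (adjusted p = 0.731), EBF1 0.65 (adjusted p = 0.245) and EBF2 2.04 (adjusted p = 0.737). Of 12 tested genes of the lipid droplet and lipolysis, 0 passed in any comparison, where 0% to 3.49% of all tested genes did. For descending minus ascending, CIDEA, a droplet protein related to CIDEC, had 4.13 (adjusted p = 0.475) and G0S2 3.15 (adjusted p = 0.505). PNPLA2, the lipase that G0S2 inhibits, had 1.32 (adjusted p = 0.676), while CAVIN1 of the caveolar coat had -0.09.

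In the list of fatty acid and triglyceride synthesis, 15 of 15 tested genes had positive descending minus ascending values. Their median was 1.73 where the median of all tested genes was -0.01, and 0 passed, where 0.113% of all tested genes did. THRSP, a lipogenic nuclear protein, had 5.65 (adjusted p = 0.274), PCK1, which feeds glycerol synthesis in fat, 5.39 (adjusted p = 0.208) and SCD, the stearoyl-CoA desaturase, 4.39 (adjusted p = 0.234). SCD averaged 9.83 ± 9.05, 11.7 ± 5.66 and 89.2 ± 117 CPM in the infrarenal, suprarenal and descending aorta, against 4.26 ± 1.23 CPM in the ascending aorta (SD, n = 4). The suprarenal minus descending values were negative in 15 of 15, with a median of -0.64 where that of all tested genes was 0.01. In that pair 0 of 15 passed, where 0% of all tested genes did. The highest descending library held 255 CPM of SCD, against the descending mean of 89.2 CPM. How far the signs of this list rest on single descending libraries was not tested. GPD1L, a relative of GPD1, rose in the infrarenal against the ascending aorta by 0.79 (SE 0.17, adjusted p = 0.0156), the 1 call among 15 genes of this list there, where 3.49% of all tested genes were called. It had 80.7, 111, 97.0 and 89.7 CPM in the infrarenal replicates, against 45.7, 49.2, 66.6 and 57.6 CPM in the ascending replicates. Its highest infrarenal library was replicate 2, whereas that of GPD1 was replicate 3. The call was lost in 5 of 25 other settings, among them the fits that left out infrarenal replicate 2, ascending replicate 1 or ascending replicate 2, and its adjusted p reached 0.0753.

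Of 10 tested genes of fatty acid uptake and lipoprotein lipase partners, 0 passed in any comparison. The share of all tested genes that passed was 0% to 3.49%, depending on the comparison. GPIHBP1, the endothelial protein that holds LPL in the capillary, had 12.6 ± 16.1, 18.4 ± 21.8 and 11.4 ± 5.52 CPM in the infrarenal, suprarenal and descending aorta, against 3.80 ± 4.01 CPM in the ascending aorta (SD, n = 4). The log2 differences for descending minus ascending were 1.58 for GPIHBP1, 1.01 for the acyl-CoA synthetase ACSL1, -0.37 for LMF1, which matures LPL, and -0.47 for the receptor VLDLR. The median of this list, 0.01, was close to that of all tested genes.

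Of 11 tested adipokines and their receptors, 1 passed for infrarenal minus ascending, where 3.49% of all tested genes did, and the same gene for any difference, where 2.02% did. CMKLR1, a receptor of the adipokine chemerin that macrophages also carry, rose in the infrarenal against the ascending aorta by 1.69 (SE 0.33, adjusted p = 0.00882). It had 191, 70.3, 109 and 54.3 CPM in the infrarenal replicates, against 27.7, 21.97, 40.7 and 41.4 CPM in the ascending ones, and its highest library was infrarenal replicate 1, in which 7 of the 10 fat genes were lowest in the region. In a fit of the libraries of the 2 regions alone the call was lost (adjusted p = 0.0770), and its call for any difference (adjusted p = 0.0454) was lost in 16 of 24 alternatives, where its adjusted p reached 0.127. RARRES2, which encodes chemerin, had 243 ± 190 CPM in the infrarenal aorta, against 78.8 ± 66.6 CPM in the ascending aorta (log2 difference 1.63, adjusted p = 0.238). RBP4, a retinol carrier made by fat, had 3.21 for descending minus ascending (adjusted p = 0.375), and ITLN1 had -2.66 (adjusted p = 0.691).

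Of 13 tested genes of insulin and adrenergic signalling, 0 passed for descending minus ascending, where 0.113% of all tested genes did. In the other comparisons 0 passed as well, where 0% to 3.49% of all tested genes did. For descending minus ascending 12 were positive, with a median of 0.52 where the median of all tested genes was -0.01. TRARG1, a partner of the insulin-responsive glucose transporter, had 3.69 (adjusted p = 0.569), the activin receptor ACVR1C 2.87 (adjusted p = 0.554), the beta-1 adrenergic receptor ADRB1 2.39 (adjusted p = 0.505) and SLC2A4, the transporter itself, 0.89 (adjusted p = 0.778).

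Of 9 tested genes of the brown fat list, 1 passed for infrarenal minus descending, where 1.65% of all tested genes did, and the same gene for any difference, where 2.02% did. For descending minus ascending 5 were positive and 4 negative, with a median of 0.10, and for infrarenal minus descending 2 were positive and 7 negative, with a median of -0.58. UCP1, the uncoupling protein that defines heat-producing fat, had 43.3, 0.120, 41.0 and 0.333 CPM in descending replicates 1 to 4 and 2.04, 0, 0.254 and 12.3 CPM in the suprarenal replicates. It had 2 counts in infrarenal replicate 1 and 0 counts in the other 3 infrarenal and the 4 ascending libraries, where a count of 0 allows up to 0.170 to 0.197 CPM (3 counts). UCP1 was highest in descending replicates 1 and 3, which were also the 2 highest descending libraries for 9 of the 10 fat genes. Infrarenal replicate 3, with 404 CPM of ADIPOQ, had 0 counts of UCP1. In the test of any difference UCP1 had an adjusted p of 0.0767. FABP3, a fatty acid binding protein of muscle and heart as well as brown fat, rose in the infrarenal against the descending aorta by 3.01 (SE 0.55, adjusted p = 0.00935), a call kept in 25 of 25 other settings. It had 35.6, 12.6, 12.8 and 17.3 CPM in the infrarenal replicates, against 1.41, 2.17, 2.61 and 3.49 CPM in the descending replicates. Its adjusted p in the test of any difference was 0.0118. DIO2, which activates thyroid hormone, had 2.10 for descending minus ascending (adjusted p = 0.316), and the potassium channel KCNK3 had -1.20 for infrarenal minus ascending (adjusted p = 0.129).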

How the data were processed

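RNA-seq was measured in 16 aortic libraries, 4 per region, grouped by the labels' titles. The files the authors deposited hold raw counts, with an NCBI GeneID for each row. Per the submitters' processing notes, the tools were featureCounts 1.5.0-p3, HISAT2 2.0.5 and fastp, and per the labels' protocols the RNA came from a fibrous tissue kit and the libraries from a NEBNext Ultra kit. The genome build, the annotation and whether counting used strand are not stated there. The 16 library files held the same counts as the series table.

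Symbols were taken from the RefSeq table of assembly T2T-MFA8v1.1, used for names only, which matched 24609 rows (74.9%, with 97.2% of counts). Genes were kept with filterByExpr of edgeR 4.0.16 (R 4.3.3; minimum count 10, minimum total 15), leaving 15926 genes and 99.9% of counts. Counts were scaled by TMM, and the quasi-likelihood F test was run on a fit with a mean per region, all 16 libraries and no replicate block. The test of any difference and 6 pairs of regions were run, and Benjamini-Hochberg adjusted p-values under 0.05 over all tested genes were called. Intervals use 12 residual and 3.46 prior degrees of freedom, and log2 CPM used a prior count of 2. The library size is the total over tested genes.

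The members and lists were chosen with earlier results of these data known. The text names all 10 members, the 4 genes of each list with the smallest p for any difference, and the 10 genes most alike in pattern. STAT5A, PLIN2, MYH7, MYLPF and LRRN4 matched no row and were not analysed here. Alternatives were RLE size factors, library totals, 2 other filters, DESeq2 1.42.0, limma voom 3.58.1, a replicate block, only the libraries compared, each library left out in turn, and a fit that left out suprarenal replicate 3, infrarenal replicate 1 and ascending replicate 4 together. The same settings were run for GPD1L, CMKLR1 and FABP3 after their values were seen. Scripts were tested on simulated data. No 2 libraries of a region were alike within sampling noise (lowest chi-square per degree of freedom 27.5).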

Additional observations from a re-analysis of the deposited data

Results flagged for a closer look

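In 13 of the 40 sets of 4 libraries (10 genes in 4 regions), the highest library lay so far above the next that Dixon's test at 95% marked it on the CPM scale. The test marks about 1 in 20 sets by chance only where values are normally distributed. That rate gives no expected count for CPM, which are skewed upward here. The 10 genes also move together, so the 13 are not independent. On the log2 scale 0 of 40 sets were marked.

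In infrarenal replicate 3 the marked genes were ADIPOQ (404 CPM, the adiponectin gene), LPL (1096 CPM), FABP4 (1719 CPM), CIDEC (53.7 CPM), LIPE (303 CPM) and GPD1 (306 CPM). In suprarenal replicate 3 it was FABP4 (1600.1 CPM). In descending replicate 1 they were PLIN4 (602 CPM) and LEP (40.8 CPM). In ascending replicate 4 they were ADIPOQ (10.6 CPM), LEP (7.36 CPM), FABP4 (443 CPM) and CIDEC (5.43 CPM).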

How the results depend on the processing

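No white fat gene was called in any of the 7 comparisons under RLE size factors, library totals, either other filter or limma voom. The 16 fits without 1 library called none either (range 0 to 0 called). In the 6 pairs of regions, fits of only the libraries compared also called none. These settings called 0% to 6.18% of all tested genes, depending on the comparison. A count of 0 among 10 genes lies near such shares and does not set the white fat genes apart. DESeq2 called 2 (infrarenal minus ascending), 1 (suprarenal minus ascending) and 4 (descending minus ascending), and the fit that left out suprarenal replicate 3, infrarenal replicate 1 and ascending replicate 4 called 1 for any difference and 6 for infrarenal minus ascending. That fit called 2099 genes in all for infrarenal minus ascending, where 556 were called with all libraries. For the DESeq2 calls the cause was not tested.

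PLIN4, infrarenal minus ascending, was the gene whose sign against the ascending aorta changed, at -0.18 with limma voom and -0.50 without infrarenal replicate 3 (0.75 with all libraries, -0.50 to 1.12 over the fits without 1 library). Signs changed in 19 of 250 values for infrarenal minus descending, 13 for suprarenal minus descending and 42 for infrarenal minus suprarenal.

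With the replicate number as a block, 0 members were called in each of the 7 comparisons. That fit called 0% to 5.29% of all tested genes, depending on the comparison. Its medians of the 10 genes were -1.42 for infrarenal and -1.54 for suprarenal minus descending (-0.60 and -0.79 without the block). Against the ascending aorta they were 2.10 (infrarenal), 1.96 (suprarenal) and 3.44 (descending). The replicate numbers do not pair the libraries by the labels. Of 24 same-numbered pairs, 19 had deviations from their region means that correlated above 0.1 (-0.27 to 0.67, median 0.337, against -0.0868 for other pairs). As a hint from the data, 15 of 16 libraries lay closest on average to their own number.

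Depth limits LEP most, with 3 counts in 3 libraries.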
